A study of Mus musculus with 24 samples.

Results

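Adipokines are the proteins that fat cells release to act on other tissues, and 9 of their genes were followed here through knockdown of the long noncoding RNA Ctcflos in brite adipocytes. The genes were Adipoq, Lep, Retn, 1100001G20Rik, Rarres2, Nampt, Vegfa, Apln and Nrg4, chosen by symbol out of the 52089 symbols of the deposited table. Where a symbol had several transcript entries, the entry with the highest mean RPKM over the 24 libraries was taken. RPKM are reads per kilobase of transcript, relative to all mapped reads of the library.

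The cells were primary preadipocytes of the stromal vascular fraction of inguinal white fat from 129SvEv mice, induced for 2 days and then kept for 1 day with rosiglitazone, an agonist of PPARγ that drives white fat precursors towards the thermogenic brite state. They were then reverse transfected with 50 nM of an LNA gapmer, an antisense oligonucleotide that makes RNase H cut its target, either directed at Ctcflos (KD) or nontargeting (NC), and were harvested 24 h or 72 h later. All 4 groups shared the strain, the depot, rosiglitazone and the transfection itself, and each held 6 libraries of 3′ end sequencing. The study calls its replicates biological, while the labels number them without naming the animals or cultures they came from, so p-values measure the spread between these samples.

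Adiponectin (Adipoq) is the most abundant hormone of mature adipocytes, and leptin (Lep) signals the size of the fat stores to the brain. Resistin (Retn) and the whey acidic protein family member encoded by 1100001G20Rik (now Wfdc21) are secreted by differentiated mouse adipocytes. Chemerin (Rarres2) attracts immune cells through its receptor Cmklr1. Nampt makes the precursor of NAD from nicotinamide and is also released as visfatin. Vegfa and apelin (Apln) act on blood vessels. Neuregulin 4 (Nrg4) is an EGF family ligand released by thermogenic fat.

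RefSeq promoter windows (GRCm38.p6) were matched for 7 of the 9 genes; Rarres2 and 1100001G20Rik had no entry. The 250 bases before the start site are shown for Adipoq (chr16:23146286-23146535, plus strand) and Retn (chr8:3655520-3655769, plus strand), which both fell at 72 h, for Nampt (chr12:32820085-32820334, plus strand), which fell with them, and for Lep (chr6:29059971-29060220, plus strand), which was hardly detected. Capitals mark matches to TTGCNNAA (C/EBP), AGGTCA (a nuclear receptor half-site) or ACGTG (the core bound by hypoxia factors) on either strand.
Adipoq: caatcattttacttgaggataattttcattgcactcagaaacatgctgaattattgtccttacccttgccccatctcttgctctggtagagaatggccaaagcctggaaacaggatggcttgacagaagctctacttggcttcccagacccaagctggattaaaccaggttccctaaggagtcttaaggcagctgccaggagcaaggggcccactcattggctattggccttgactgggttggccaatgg
Retn: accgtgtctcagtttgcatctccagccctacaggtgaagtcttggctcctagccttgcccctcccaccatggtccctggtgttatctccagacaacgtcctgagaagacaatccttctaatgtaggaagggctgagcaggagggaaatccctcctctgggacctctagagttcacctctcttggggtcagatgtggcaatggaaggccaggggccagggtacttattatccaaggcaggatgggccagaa
Nampt: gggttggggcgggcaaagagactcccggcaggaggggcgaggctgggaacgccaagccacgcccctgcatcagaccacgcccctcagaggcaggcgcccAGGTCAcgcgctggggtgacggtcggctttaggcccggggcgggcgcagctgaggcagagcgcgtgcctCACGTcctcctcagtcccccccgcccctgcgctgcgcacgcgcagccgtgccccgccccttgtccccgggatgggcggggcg
Lep: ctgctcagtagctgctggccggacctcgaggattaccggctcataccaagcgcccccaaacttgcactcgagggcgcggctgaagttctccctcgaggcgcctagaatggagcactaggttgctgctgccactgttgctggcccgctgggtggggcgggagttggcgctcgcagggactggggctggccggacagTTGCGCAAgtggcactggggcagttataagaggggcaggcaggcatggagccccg
The windows of Adipoq and Retn held none of these letters, and the Nampt window held 1 AGGTCA and 1 ACGTG. Lep carried TTGCGCAA, which reads the same on both strands, from position -55 relative to the start site. CACGTG (an E-box, which contains ACGTG on both strands) was in 0 of the 8 windows of the 7 genes. Among all 32851 windows of 300 bases, TTGCNNAA was found in 10.8%, AGGTCA in 16.3%, ACGTG in 19.6% and CACGTG in 7.15%, so these matches are a description and not a sign of binding.

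The libraries held between 1391832 and 5926375 mapped reads (median 4009998), as recovered from the RPKM. The highest total was that of NC 72 h replicate 6, whose reads came mostly in steps of 2, and the next was 5423840 in NC 24 h replicate 2. The total of that replicate, and its part of the NC 72 h read sums below, may therefore be too high. NC 72 h replicates 2 and 3 differed by less than the sampling noise and were counted as 1 sample, which left 23 samples and n = 5 in NC 72 h. Deviations from the group means sorted 15 samples into one cluster, called the larger, and 8 into another, called the smaller, and every group had 2 samples in the latter. The labels name nothing that separates these clusters, and because several adipokine genes followed them, values within each cluster stand beside the calls they touch. The clusters were drawn from the expression of these same samples, with Adipoq, Retn, Rarres2, Nampt and Vegfa among the genes used. A split by cluster or a cluster covariate therefore narrows the spread by construction, and calls gained that way are a description. Of the target, entry NR_040321 held 12 reads over the 6 KD and 60 over the 6 NC libraries at 24 h, and 17 against 89 over 6 and 5 samples at 72 h. Another entry, ENSMUST00000144256, which the paper names as transcript 1, held 8 reads in KD and 12 in NC at 24 h, and 3 against 40.5 at 72 h. Further Ctcflos transcripts that the paper names were not counted here. The RPKM of KD and NC samples overlapped in both of the counted entries at 24 h, and at 72 h in ENSMUST00000144256. The labelled cell type was checked against 10 adipocyte and 5 brite markers. All of them held enough reads to be tested in each comparison, and the summed adipocyte markers reached 61950 to 66090 RPKM as deposited in NC 24 h.

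In control cells at 24 h Adipoq stood far above the other genes, at 2881 ± 110.4 scaled RPKM (mean ± SD, n = 6; RPKM after a common trimmed scaling over samples). Nampt followed at 466 ± 104, Rarres2 at 372 ± 65.1 and Retn at 286 ± 37.3, and the ranges of each neighbouring pair among these overlapped. Vegfa lay at 38.5 ± 9.91, 1100001G20Rik at 30.3 ± 11.1, Apln at 14.1 ± 6.37 and Nrg4 at 6.73 ± 2.40, again with each overlapping the next. RPKM of 3′ reads gives short transcripts a higher value, and by RPM, reads relative to all mapped reads without regard to length, the same order held down to Vegfa, but Nrg4 (13.5 RPM) stood above 1100001G20Rik (10.8) and Apln (5.3). At 72 h Rarres2 had moved to second place in both groups, at 898 ± 232 in KD (n = 6) and 1105 ± 588 in NC (n = 5).

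Lep was listed above 0 in 2 of the 24 libraries, at no more than 0.367 RPKM as deposited. One NC 24 h sample stood at 0.384 scaled RPKM and the averaged NC 72 h pair at 0.092, whereas every KD sample was listed at 0. Lep was therefore not fitted. With 1 sample above 0 in each knockdown comparison, a two-sided exact permutation test could give no p below 1 at 24 h or 0.455 at 72 h, so these values cannot show a difference in leptin transcript in either direction.

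**Figure D1:**
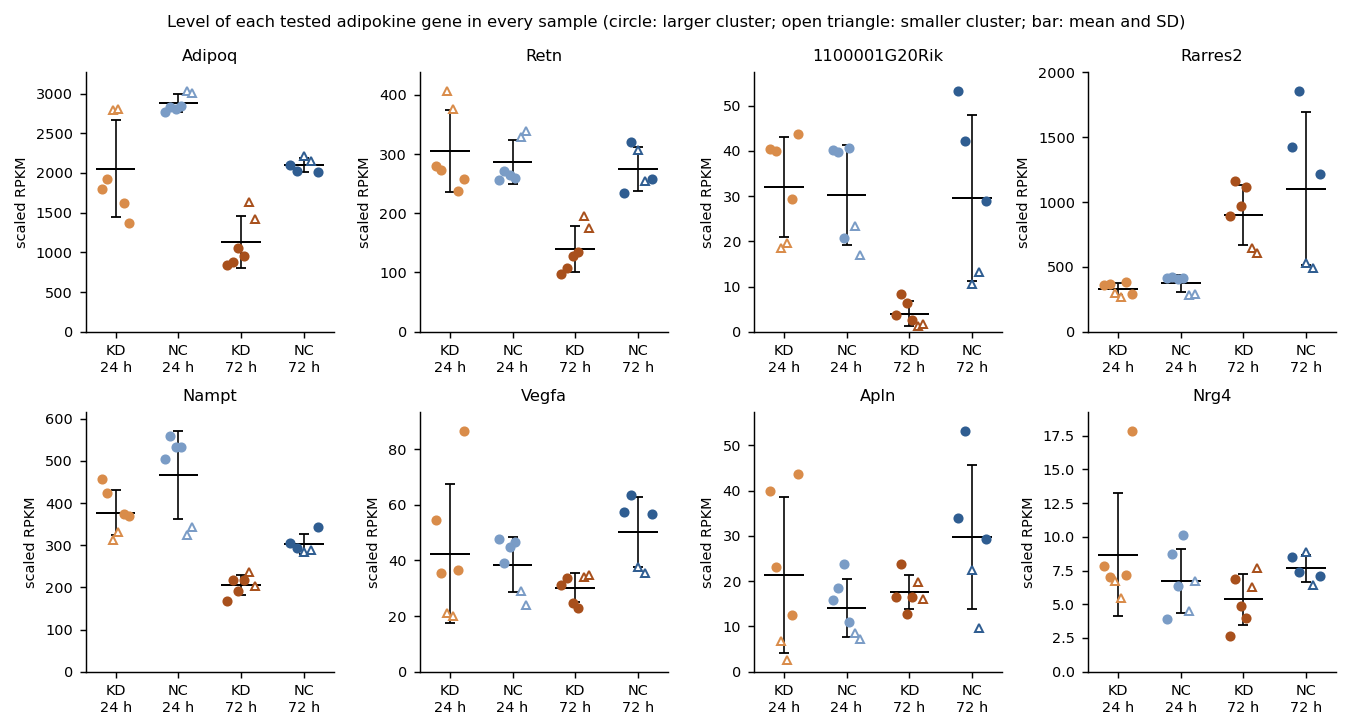
Scaled RPKM (vertical axes, starting at 0) of the 8 fitted genes in each sample of the 4 groups; circles are samples of the larger cluster, open triangles those of the smaller cluster, and black bars the mean and SD. At 72 h the KD samples of Adipoq, Retn, 1100001G20Rik, Nampt and Vegfa all sit below the NC samples, and the triangles of Rarres2, Nampt, Vegfa, Apln and 1100001G20Rik are among the lowest at 24 h.

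The first comparison asked what knockdown did to adipokine transcripts within 24 h. Adiponectin was the 1 gene that fell, to 68.8% of control, while resistin, chemerin, visfatin, Vegfa, apelin, 1100001G20Rik and Nrg4 passed no threshold in either direction. In this comparison 21.8% of the 53839 entries tested were called at an adjusted p under 0.05 and 11.4% were called lower, so 1 of 8 is close to the share over all entries. In 0 of the 8 genes were the groups apart, as they were in 10.9% of entries. The fitted log2 differences of the 8 genes ran from -0.54 to 0.32 with a median of 0.03, beside -0.01 over all entries.

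Adipoq ranged from 1370 over a median of 1860 to 2809 scaled RPKM in KD 24 h, and from 2772 over 2838 to 3030 in NC 24 h. The groups overlapped, since 2 KD samples reached the control range, and these were the 2 KD samples of the smaller cluster. The log2 difference was -0.54 ± 0.16 (SE; limma, Benjamini-Hochberg adjusted p = 0.0257). Within the larger cluster KD averaged 1680 and NC 2810, and within the smaller one 2800 and 3020, where the fitted difference was -0.10 (limma adjusted p = 0.305). The call was lost without KD 24 h replicate 1 (adjusted p = 0.0589), 2 (0.051) or 5 (0.0594), at log2 differences of -0.51, -0.53 and -0.48. Summed adipocyte markers overlapped at this time, at 54050 to 72750 RPKM as deposited in KD and 61950 to 66090 in NC, without scaling. Of these 10 markers, 4 were called lower and 0 higher. Brite markers, 4 of 5 of them called lower, summed to 356 to 521 in KD and 497 to 975 in NC, and epithelial markers to 22.9 to 77.5 and 17.9 to 26.1. Their part in the fall was not tested.

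Nampt had medians of 371 in KD and 519 in NC at 24 h, with ranges of 312 to 456 and 325 to 559.7 that overlapped. Its difference of -0.28 ± 0.15 was not called (limma adjusted p = 0.195). Taking the cluster as a covariate left the estimate at -0.28 and brought the limma adjusted p to 0.0307, and in the larger cluster alone it was -0.40 (limma adjusted p = 0.0195). Because the clusters were drawn from these same values, neither is independent support for a fall. Its 5 entries gave -1.41 to -0.28, and 2 of them were called, AK086415 among them at -1.41 ± 0.47 (limma adjusted p = 0.0425).

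Retn (0.07 ± 0.14), 1100001G20Rik (0.08 ± 0.28), Vegfa (-0.01 ± 0.31), Apln (0.15 ± 0.58) and Rarres2 (-0.17 ± 0.13) had limma adjusted p-values between 0.364 and 0.984. Apln spread widest, from 2.62 to 43.6 scaled RPKM within KD 24 h, on 168 reads in that group. Its 2 lowest KD samples belonged to the smaller cluster, which averaged 4.66 against 29.8 in the larger. Without KD 24 h replicate 1 or 6 or NC 24 h replicate 6, the estimate for Apln turned to between -0.16 and -0.01.

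At 72 h Adipoq, Retn, 1100001G20Rik, Nampt and Vegfa, 5 of the 8 fitted genes, were lower after knockdown, and no member was higher. Among all 54056 entries tested 22.4% were called, 12% lower. The median log2 difference of the 8 genes was -0.65, beside 0.01 over all entries. In the same 5 genes every KD sample lay below every NC sample, which was true of 7.68% of entries in that direction and of 13.8% in either. In bulk samples fewer cells of a type and less RNA per cell cannot be told apart. Summed over 10 adipocyte markers, KD 72 h ranged from 41190 to 47410 RPKM as deposited and NC 72 h from 49520 to 58950, without scaling. Of the 10 markers, 3 were called lower and 0 higher. Their part in the fall of the adipokine genes was not tested.

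1100001G20Rik showed the steepest fall of the 8 fitted genes. KD 72 h ranged from 1.37 over a median of 3.12 to 8.25 scaled RPKM, while the NC 72 h samples read 53.2, 42.1, 29.0, 13.1 and 10.7. All KD samples lay below all NC samples, although NC itself spanned a wide range in which the 2 lowest samples were those of the smaller cluster. The difference of -2.90 ± 0.50 left 13.4% of control (limma adjusted p = 0.00111) and rested on 36 reads over 6 KD samples against 204.6 over 5 NC samples. Within the larger cluster KD averaged 5.19 and NC 41.5, and within the smaller 1.49 and 11.9.

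Retn read 233, 320.5, 306, 254 and 258 scaled RPKM in the NC 72 h samples, and from 97.3 over a median of 132 to 195 in KD 72 h. The groups were apart, with the highest KD values in the smaller cluster. The difference was -1.01 ± 0.17, or 49.7% of control (limma adjusted p = 0.00083), and all 4 Retn entries fell. It was -1.21 in the larger cluster and -0.58 in the smaller (limma adjusted p = 0.000111 and 0.0253).

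Adipoq was 2105, 2019, 2219, 2149.9 and 2008 in NC 72 h, a narrow band, and from 835 over 1004 to 1635 in KD 72 h. KD samples were lower throughout, again least so in the smaller cluster, where KD averaged 1530 and NC 2180, against 931 and 2040 in the larger. The difference of -0.94 ± 0.16 left 52.2% (limma adjusted p = 0.000916), and all 5 Adipoq entries gave -0.96 to -0.94.

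Nampt measured 305, 293, 283, 289 and 342 scaled RPKM in NC 72 h, and 167 to 236 around a median of 211 in KD 72 h. The groups did not overlap, and the difference was -0.56 ± 0.10 (limma adjusted p = 0.00117), or 67.7% of control. All 5 entries were called lower, at -0.78 to -0.56. In the smaller cluster alone the difference was -0.37 and not called (limma adjusted p = 0.0924).

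Vegfa came closest to overlapping among the 5, with the highest KD 72 h sample at 34.8 and the lowest NC 72 h sample at 35.4. The NC samples read 57.3, 63.4, 37.7, 35.4 and 56.8, and KD ranged from 22.7 over 32.4 to 34.8. The 2 low NC samples were those of the smaller cluster. The difference was -0.71 ± 0.18 (limma adjusted p = 0.0103), 8 of 10 tested entries of the gene were called lower and 0 higher, and the fall was not seen in the smaller cluster (34.4 in KD, 36.6 in NC; -0.07, limma adjusted p = 0.832). On the deposited values without scaling it was -0.46 (limma adjusted p = 0.0773), and with all 4 groups in 1 fit the adjusted p was 0.0811.

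Apln and Rarres2 were not called at 72 h over all samples. Apln ranged from 12.7 over 16.5 to 23.7 in KD, and the NC samples read 34.0, 53.2, 22.5, 9.74 and 29.2. The groups overlapped through the 2 NC samples of the smaller cluster, of which replicate 5 was the lowest of all. With replicate 5 the difference was -0.59 ± 0.32 (limma adjusted p = 0.211), and without it -0.94 (limma adjusted p = 0.011). In the larger cluster alone Apln fell by 1.14 on the log2 scale (limma adjusted p = 0.00455), while in the smaller cluster it was 0.28 (limma adjusted p = 0.668).

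Rarres2 spanned 494 to 1856 in NC 72 h and 606 to 1160 in KD 72 h, so that the groups overlapped fully, at -0.15 ± 0.32 (limma adjusted p = 0.78). The estimates of the 2 clusters had opposite signs, and their difference was not tested. In the larger KD averaged 1030 and NC 1500 (-0.52, limma adjusted p = 0.0164), and in the smaller, where it was not called, KD averaged 627 and NC 513 (0.31, limma adjusted p = 0.111). Deposited RPKM without scaling gave 0.10, and without NC 72 h replicate 2, the averaged pair, the difference was 0.09.

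**Figure D2:**
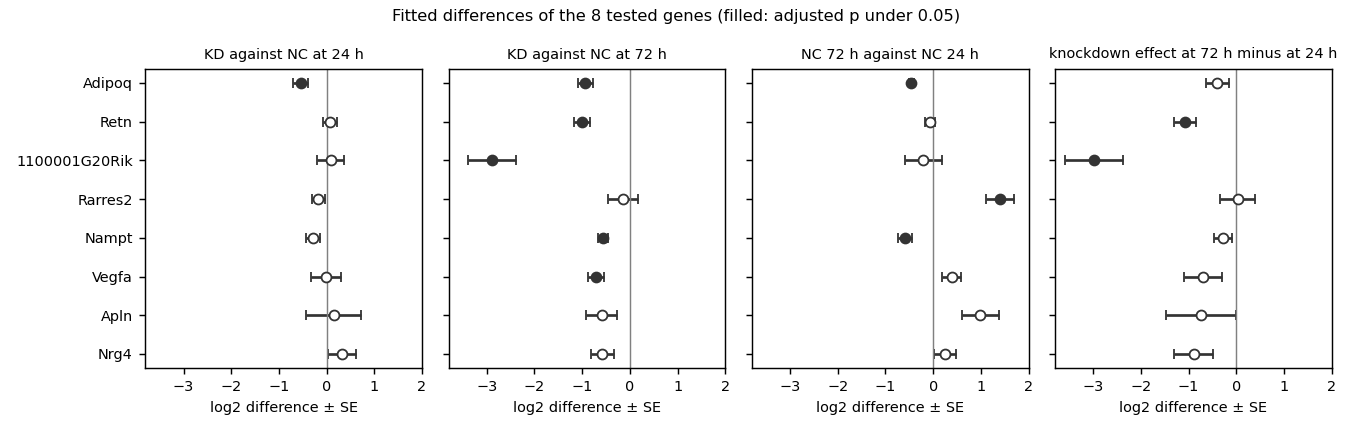
Fitted log2 differences (horizontal axes; points with bars of 1 SE) of the 8 genes in the 4 comparisons, filled where the adjusted p was under 0.05. Adipoq alone is filled at 24 h, 5 genes are filled to the left of 0 at 72 h, and 1100001G20Rik lies furthest left at -2.90.

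Whether the effect of knockdown itself differed between the times was tested by an interaction term over all 4 groups. Retn and 1100001G20Rik, both near control at 24 h and lower at 72 h, were the 2 of 8 genes called, at -1.08 ± 0.23 (limma adjusted p = 0.044) and -2.98 ± 0.61 (limma adjusted p = 0.0358). Among the tested entries of these genes, 3 of 4 were called lower for Retn and 2 of 3 for 1100001G20Rik. Over all 59451 entries 0.195% were called and 0.074% were called lower. Adipoq, which fell at both times, did not pass this test (-0.40 ± 0.24; limma adjusted p = 0.528), and neither did Vegfa (-0.70 ± 0.39; 0.502), Nampt (-0.28 ± 0.19; 0.597), Nrg4 (-0.90 ± 0.40; 0.378), Apln (-0.74 ± 0.73; 0.734) or Rarres2 (0.02 ± 0.36; 0.988).

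Both interaction calls lay close to the threshold. Leaving out 1 sample kept Retn between -1.18 and -0.98 but lost its call in 17 of 23 cases, with adjusted p-values up to 0.0904. It was kept only without KD 24 h replicate 1, 5 or 6, NC 24 h replicate 6, or KD 72 h replicate 5 or 6. 1100001G20Rik stayed between -3.28 and -2.71 and lost its call in 14 of 23 cases, at up to 0.0764. Its call was kept without KD 24 h replicate 1, 3, 4 or 6, NC 24 h replicate 1, KD 72 h replicate 2 or 3, or NC 72 h replicate 4 or 5.

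The control groups alone followed the genes as differentiation went on from 24 h to 72 h; these NC samples also enter the knockdown comparisons. Rarres2 rose, Adipoq and Nampt fell, and the other 5 fitted genes were not called. Here 8.97% of 53533 entries were called, 4.56% higher and 4.41% lower. Adipoq and Rarres2 did not overlap between the times, as 7.27% of entries did not.

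Rarres2 went from 285 to 419.9 around a median of 410 in NC 24 h to 1427, 1856, 531, 494 and 1215 in NC 72 h. Every late sample was above every early one, and the 2 lowest at each time were those of the smaller cluster. The rise was 1.40 ± 0.30 on the log2 scale, to 263% of the early level (limma adjusted p = 0.00846). It was 1.83 in the larger cluster and 0.82 in the smaller (limma adjusted p = 3.74e-06 and 0.00262). Adipoq fell from a median of 2838 to 2105, by 0.46 ± 0.05 (limma adjusted p = 0.000137), and with all 4 groups in 1 fit, whose spread includes the KD groups, the adjusted p was 0.134.

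Nampt fell from 325 to 559.7 in NC 24 h to 283 to 342 in NC 72 h, with overlap through the 2 early samples of the smaller cluster. The difference was -0.59 ± 0.14 (limma adjusted p = 0.0154), and all 5 of its entries were called lower. In the smaller cluster alone it was -0.23 (limma adjusted p = 0.247). Apln (0.99 ± 0.38; limma adjusted p = 0.134) and Vegfa (0.39 ± 0.20; 0.285) were not called over all samples. With cluster as a covariate both were called higher, at 1.07 (limma adjusted p = 0.0068) and 0.43 (0.00288), but the clusters were drawn from these same samples. Without NC 72 h replicate 5 Apln was called at 1.34 (limma adjusted p = 0.0191). Retn (-0.06 ± 0.10) and 1100001G20Rik (-0.21 ± 0.39) were not called, with limma adjusted p-values of 0.784 and 0.811.

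For Nrg4 the answer depended on which transcript entry was read. The entry taken by the rule, AK041077, was not called in any comparison, with 0.32 ± 0.29 at 24 h (limma adjusted p = 0.442) and -0.58 ± 0.24 at 72 h (limma adjusted p = 0.108). The RefSeq entry NM_032002 carried far fewer reads, 60 in KD 72 h and 170 in NC 72 h against 284 and 312.5 for AK041077. It ranged from 0.36 over 1.1 to 2.27 scaled RPKM in KD 72 h and from 3.87 to 5.00 in NC 72 h, with no overlap. The difference of NM_032002 was -2.01 ± 0.38 (limma adjusted p = 0.00206), and at 24 h it was -1.77 ± 0.70 and not called (limma adjusted p = 0.0803). Of 7 Nrg4 entries tested at 72 h, 6 were called lower and 0 higher, AK041077 being the exception. Entries of a gene can count the same reads, so these calls are not independent of each other.

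By its position Nrg4 (GRCm38, chr9:55220222-55326844, minus strand; GENCODE M21) shares 4212 bases with Fbxo22 (chr9:55208925-55224433, plus strand), a subunit of a ubiquitin ligase, and 368 of them are exonic in both. Nrg4 also overlaps the processed pseudogene Gm15625 on the plus strand by 1093 bases, 177 of them exonic in both. Across the 23 samples AK041077 was most like Fbxo22 among 12802 symbols, with r = 0.893 on the log2 scale. Its highest sample, KD 24 h replicate 6 at 17.8 scaled RPKM, was also the highest for Fbxo22, at 20.3. That sample was the shallowest library and was the highest for Vegfa too, at 86.4, so its high value is not particular to this pair. How the authors' counting treated strand is not given in the sources used here, so reads of Nrg4 and Fbxo22 cannot be told apart in the shared stretch. Whether AK041077 lies in that stretch was not checked, and the share of AK041077 reads that came from Fbxo22 was not tested.

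Rarres2 (chr6:48569696-48572789, minus strand) likewise shares 1027 bases, 892 of them exonic in both, with Lrrc61 (chr6:48554796-48570722, plus strand). The Lrrc61 entry AK143222 held 7659 reads in NC 24 h where Rarres2 held 6426, and the profiles of the symbols had r = 0.999 over 23 samples. AK143222 rose from NC 24 h to NC 72 h by 1.41 ± 0.29 (limma adjusted p = 0.00694), as Rarres2 did. The rise given above for chemerin therefore belongs to the pair of genes as counted. Of the other members, Nampt lies over the noncoding Gdap10 on its own strand with 0 shared exonic bases, and no other member overlapped an annotated gene.

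**Figure D3:**
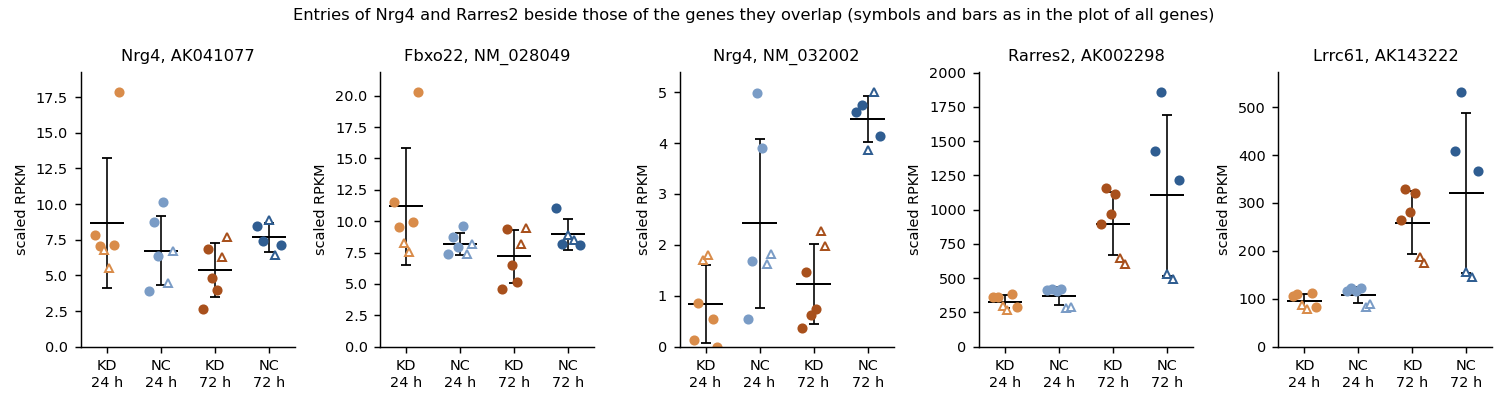
Scaled RPKM (vertical axes, starting at 0) per sample of 2 Nrg4 entries, the Rarres2 entry and the entries of the overlapping genes Fbxo22 and Lrrc61; circles and triangles are the larger and smaller cluster, black bars the mean and SD. AK041077 follows Fbxo22, with 1 KD 24 h sample high in both, NM_032002 is lower in every KD 72 h sample than in any NC 72 h sample, and Rarres2 and Lrrc61 share 1 pattern.

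The genes most like each member over the 23 samples are given as a description, since differences between the 4 groups enter the correlation. Adipoq was most like Adig (r = 0.981), a small adipocyte membrane protein, and Mdh1 (0.97), the cytosolic malate dehydrogenase. Retn was most like an Ensembl entry without a symbol, ENSMUST00000135190 (0.904), and Adipoq (0.893). 1100001G20Rik stood nearest to Romo1 (0.888) and Lmo4 (0.883), and Nampt to Samhd1 (0.899) and Pmvk (0.899). Vegfa was nearest to the ceramidase Acer2 (0.891) and to Pdk1 (0.891), the kinase that restrains pyruvate dehydrogenase. Apln was nearest to the class I histocompatibility gene H2-K1 (0.868) and the entry ENSMUST00000181227 (0.86). After Lrrc61, Rarres2 was most like Lrg1 (0.98), a secreted glycoprotein. Nrg4 was next most like AK137462 (0.781).

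Receptors for these ligands were mostly too low to fit. Of 15 listed receptors, 5 were tested in each of the 3 pairwise comparisons, and at 24 h 0 were called. The adiponectin receptors Adipor1 and Adipor2 were not called at 72 h (0.00 and -0.24; limma adjusted p = 0.998 and 0.183). Cap1, a binding partner of resistin, was higher at 72 h by 0.37 ± 0.13, with a limma adjusted p that rounds to 0.05. Ccrl2, which binds chemerin at the cell surface, fell in NC over time by 2.99 ± 0.54 (limma adjusted p = 0.00269).

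Of 10 genes listed as chaperones and partners that assemble adiponectin, 3 fell at 24 h and 0 rose, where 11.4% of all entries were called lower, with Calr at -0.39 and Hspa5 at -0.36, both chaperones of the endoplasmic reticulum. At 72 h, where Adipoq itself was lowest, 1 rose and 0 fell, that gene being Gstk1 (DsbA-L) at 0.68 ± 0.16 (limma adjusted p = 0.00824). The list's median was -0.30 at 24 h and -0.11 at 72 h, beside -0.01 and 0.01 over all entries. In NC over time 3 fell, where 4.41% of all entries did, Calr at -0.44 and Hspa5 at -0.25 among them.

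Around Nampt, 11 genes of NAD metabolism were listed. Nmnat3, which completes NAD in mitochondria, fell at 24 h by 2.14 ± 0.30 (limma adjusted p = 0.000506) and at 72 h by 1.69 ± 0.35 (limma adjusted p = 0.00356). Bst1, which consumes NAD, rose at 72 h by 2.55 ± 0.63 (limma adjusted p = 0.0101), and Cd38, of the same kind, rose in NC over time by 1.63 ± 0.45 (limma adjusted p = 0.0337). These were the only genes called of 6 tested at 24 h, 8 at 72 h and 6 over time.

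The vascular factors beside Vegfa held 1 call, Angpt1, a ligand of Tek, higher at 72 h by 1.05 ± 0.21 (limma adjusted p = 0.00272; 7 of 9 tested). Among EGF family ligands, to which Nrg4 belongs, Hbegf rose at 24 h by 2.20 ± 0.52 (limma adjusted p = 0.00926) and at 72 h by 1.67 ± 0.43 (0.013). Btc rose at 24 h by 1.12 ± 0.22 (0.00311) and Nrg1 at 72 h by 1.06 ± 0.36 (0.0485), out of 3 tested each time, so that the calls of the relatives ran against that of NM_032002. Of 11 relatives of 1100001G20Rik and Retn, 2 were tested at 72 h, and Wfdc17 fell by 2.79 ± 0.88 (limma adjusted p = 0.0349).

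Of 30 other secreted adipocyte factors, 21 were tested at 24 h and 4 were higher and 5 lower; at 72 h 3 of 21 were higher and 6 lower. Of all entries 21.8% and 22.4% were called at these times in either direction. Rbp4, which carries retinol, fell by 0.61 ± 0.16 at 24 h (limma adjusted p = 0.0156) and by 1.94 ± 0.15 at 72 h (3.29e-06), and it was called in the interaction (-1.33 ± 0.23; limma adjusted p = 0.0097). Gdf15, a stress hormone, was higher at both times, at 1.94 ± 0.22 at 24 h (limma adjusted p = 0.000122) and 0.61 ± 0.16 at 72 h (0.0139), and its interaction was called lower too (-1.34 ± 0.28; limma adjusted p = 0.046). Pltp, which transfers phospholipids between lipoproteins, rose in NC over time by 2.18 ± 0.23 (limma adjusted p = 7.84e-05). The list's median at 72 h was 0.00, against -0.65 for the members.

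**Figure D4:**
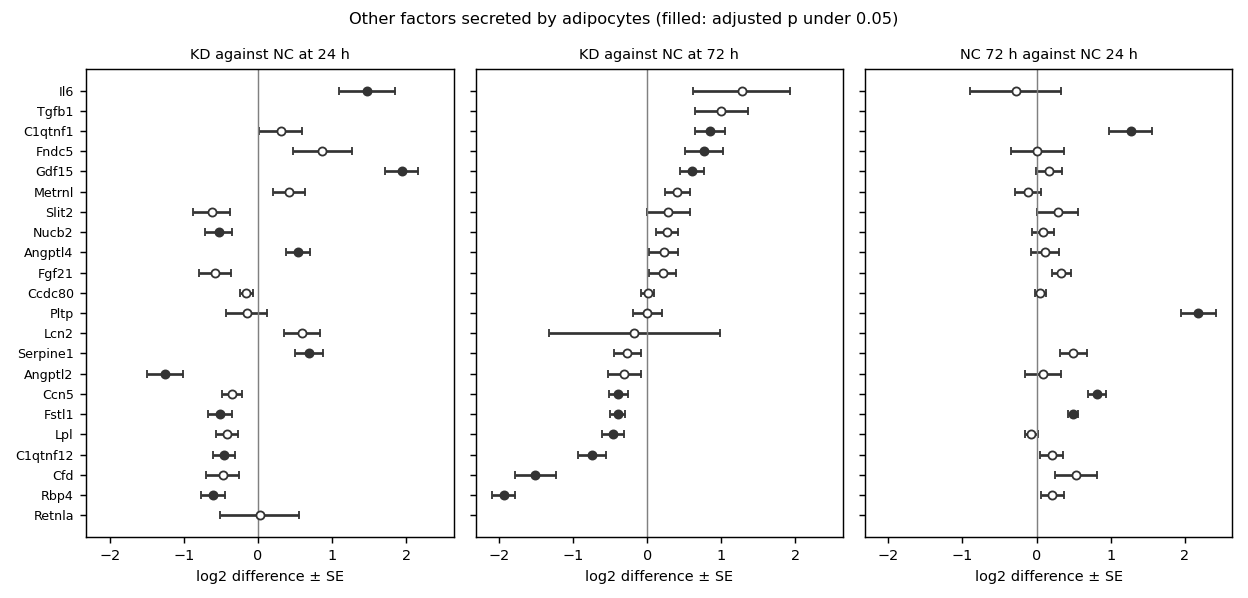
Fitted log2 differences (horizontal axes; points with bars of 1 SE) of every tested gene in a list of other secreted adipocyte factors, in the order of the 72 h comparison and filled where the adjusted p was under 0.05. Rbp4 lies furthest left at 72 h, at -1.94, Gdf15 furthest right at 24 h, at 1.94, and Pltp furthest right in NC over time, at 2.18.

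The brite and adipocyte markers called at 72 h were lower, like the adipokine genes called then. Markers of other cells that were called at 72 h were higher, except Lyz2. All 5 brite markers were lower, Ucp1 by 2.38 ± 0.22 (limma adjusted p = 9.66e-06), Cidea by 1.70 ± 0.21 (8.77e-05) and Cox7a1 by 1.47 ± 0.20 (0.000199). The sum of the 5 ranged from 485 to 966 RPKM as deposited in KD 72 h and from 1375 to 2207 in NC 72 h. Among adipocyte markers, Slc2a4 fell by 1.59 ± 0.32 at 24 h (limma adjusted p = 0.00387) and fell by 1.77 ± 0.18 at 72 h (2.08e-05), Cebpa by 1.02 ± 0.30 at 24 h (0.0262) and Pnpla2 by 0.71 ± 0.19 at 72 h (0.0153).

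The epithelial sum of 9 markers was 119 to 175 RPKM as deposited in KD 72 h and 17.9 to 25.9 in NC 72 h. Krt19 was the 1 marker tested and was higher by 2.54 ± 0.16 (limma adjusted p = 5.57e-07), with Upk3b at 0 in all groups. Of 8 macrophage markers, whose sum was 31.9 to 42.3 in KD 72 h and 38.9 to 125 in NC 72 h, 3 were tested. Lyz2 fell by 3.94 ± 0.62 (limma adjusted p = 0.000592), while Cd68 rose by 1.94 ± 0.47 (0.00943) and Csf1r by 1.24 ± 0.23 (0.00192). Stromal progenitor markers summed to 811 to 965 in KD 72 h and 371 to 954 in NC 72 h, with Cd34 higher by 2.28 ± 0.48 (0.00424) and Pdgfrb by 0.59 ± 0.14 (0.00779) among 5 tested, and Thy1 rose in NC over time by 0.75 ± 0.14 (0.00283). Endothelial markers, 7 in all, summed to at most 3.63 in any sample. The part of these cells in the adipokine differences was not tested.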

How the data were processed

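Transcripts were measured in 24 libraries of bulk 3′ sequencing with barcoded oligo-dT primers. The authors deposited RPKM for 168326 entries, of which 88340 were GenBank, 48232 Ensembl and 31754 RefSeq; aligner settings, genome build and strand handling of these values are not given in the sources used here. Per the study's methods, reads were aligned to RefSeq and tested for each time point in the Genomatix suite. RPKM is no count, so limma was used on a log2 scale. Entries of a gene overlap and can count the same reads, so the number of its entries called is not repeated support. Of the value columns, 0 were left unused.

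Whole reads and entry lengths were recovered from the steps of the RPKM values (93.0% to 93.7% of low values whole within 0.02), and served the filter (10 reads in the median library in as many samples as the smaller group, 15 in total). Statements on depth cover counting error only, since molecular identifiers were not used here. NC 72 h replicates 2 and 3 (0.35 of counting noise; the next of 276 pairs 2.04) were averaged. Steps of NC 72 h replicate 6 were worth 2 reads (14.9% odd), which leaves RPKM as it is. Its recovered total and reads may be too high, and the read sums of NC 72 h include them.

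RPKM were scaled by 1 trimmed mean of log ratios (0.3 of ratios, 0.05 of levels) over 23 samples. Marker sums are of deposited RPKM, without this scaling. limma 3.58.1 in R 4.3.3 with an intensity trend was fitted to log2(scaled RPKM + 0.1), a scale that understates changes of low genes; tests are two-sided, with Benjamini-Hochberg adjustment over all entries and a threshold of 0.05. The fit was tested on simulated data. Alternatives varied the pseudocount, filter, scaling, entries, pooling, model and samples. Positions came from GENCODE M21, promoters from RefSeq. Groups and replicate numbers came from the sample titles. The members and the 13 other lists were chosen with earlier results of these data known. Named were all members, up to 3 called genes per list with the largest differences, and the 2 symbols most like each member.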

Additional observations from a re-analysis of the deposited data

Results flagged for a closer look

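Retn and 1100001G20Rik stood out because the knockdown effect at 72 h differed from that at 24 h by the interaction test, at -1.08 and -2.98 on the log2 scale. Both calls were lost in more than 10 of 23 leave-outs of a sample, as given above.

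Among 34 combinations of gene and group with any spread, 3 held a sample far from the rest of its group. For continuous values chance marks about 1 in 20. That rate does not cover the Lep groups, where a lone value above 0 is always marked. Nrg4 (AK041077) in KD 24 h had replicate 6, the shallowest library, at 17.8 scaled RPKM, against a group median of 7.10. Lep in NC 24 h had replicate 4 at 0.384, and in NC 72 h the averaged pair at 0.092, where all other samples were listed at 0.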

How the results depend on the processing

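Every call among the 9 genes kept its direction under the alternatives run: 11 called differences gave 310 values, of which 261 stayed called, 49 missed the threshold and 0 changed sign. The 72 h falls of Adipoq, Retn and 1100001G20Rik stayed called in all 26 alternatives each. The 21 uncalled differences gave 618 values, 45 with the other sign, 0 of these called, and 12 past the threshold.

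The number of members called was 1, 5, 3 and 2 at 24 h, at 72 h, in NC over time and for the interaction. It became 0 at 24 h without a filter or in the smaller cluster alone, and 2 at 24 h in the larger cluster alone or with cluster as a covariate. At 72 h it became 7 in the larger cluster, 6 with RefSeq entries, 4 on deposited RPKM or with all groups in 1 fit, and 3 in the smaller cluster. Over time it became 5 in the larger cluster or with the covariate, and 2 in the smaller cluster or with all groups in 1 fit. For the interaction it became 0 without a filter, and 1 with a pseudocount of 0.01, deposited RPKM, the replicate block or voom on recovered reads. Leaving out 1 sample gave 0 to 1 at 24 h, 5 to 6 at 72 h, 3 to 4 over time and 0 to 2 for the interaction.

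Entries called numbered 11748, 12133, 4801 and 116 in the same order. With 1 entry per symbol, which tests fewer entries, they were 2383, 2663, 1060 and 46, and with RefSeq entries alone 3684, 3540, 1425 and 50. The smaller cluster alone gave 1359, 5894, 1633 and 1700, and the covariate gave 7208 over time and 337 for the interaction, where the larger cluster gave 889. Other interaction counts were 244 with a pseudocount of 1, 777 on deposited RPKM and 184 with NC 72 h replicates 2 and 3 apart. Without 1 sample they ran from 55 to 188, low without KD 24 h replicate 2, NC 24 h replicate 2, 4 or 5, or KD 72 h replicate 1, 2, 3 or 4, and high without KD 24 h replicate 6. Causes other than fewer entries or samples were not tested. Deposited RPKM moved the median of all entries at 72 h to 0.25, and calls that were higher from 46.3% to 80.9%; for the interaction they moved from 62.1% to 96.1%.

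Uncalled estimates with the other sign were, at 24 h, Vegfa at 0.05 on deposited RPKM and 0.16 in the larger cluster, Retn at -0.011 in the larger cluster, Nrg4 at -1.77 from RefSeq entries, Apln at -0.039 with voom and -0.89 in the smaller cluster, and 1100001G20Rik at -0.05 in the smaller cluster. At 72 h they were Rarres2 at 0.101 on deposited RPKM and 0.31 in the smaller cluster, and Apln at 0.28 there. Over time they were Retn at 0.026 and 1100001G20Rik at 0.24 in the larger cluster. For the interaction they were Rarres2 at -0.13 with the pair apart, -0.26 in the larger cluster and -0.025 with the covariate, and Apln at 1.17 and Vegfa at 0.28 in the smaller cluster. Without 1 sample the ranges that crossed 0 were, at 24 h, Apln -0.155 to 0.636, Vegfa -0.246 to 0.168, Retn -0.016 to 0.139 and 1100001G20Rik -0.065 to 0.223; at 72 h Rarres2 -0.391 to 0.085; over time 1100001G20Rik -0.482 to 0.095; and for the interaction Rarres2 -0.217 to 0.26.

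Replicate numbers did not pair the samples: same-numbered samples deviated together with a mean r of -0.11 at 24 h, 0.03 at 72 h and 0.01 between NC groups. The replicate block gave 8622, 8210, 2862 and 62 calls. With it Nampt over time was not called (-0.55; limma adjusted p = 0.0618), Apln over time was (1.17; 0.0179), and the Retn interaction was not (-1.10; 0.0905); other member calls stood. Depth limits Lep, the Nrg4 entry NM_032002, Apln and 1100001G20Rik, each on few reads a sample.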
